A study of Mus musculus with 12 samples.

Results

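The response of wild-type (WT) mouse macrophages to bafilomycin A1 (BafA1) was taken from 6 of the 12 libraries of the series, the 3 titled as WT with BafA1 and the 3 titled as WT with DMSO, and it covers all 12052 genes that passed a filter on low counts. The cells were bone marrow-derived macrophages, grown from marrow with the growth factor M-CSF, frozen, thawed, and exposed to 25 nM BafA1 or to an equal share of the solvent DMSO for 22 hours. Each biological replicate was made from marrow pooled over several animals, per the labels. The comparison asks how macrophages answer a loss of lysosomal acidity. Strain, age and sex of the mice were not given in the sources used here, and the design has 1 dose and 1 time point. The other 6 libraries, from Trem2 KO macrophages with BafA1 or DMSO (3 each), share the statistical fit and serve to test whether a change in WT differed from that in KO. Trem2 averaged 401 ± 0.451 CPM (counts scaled to a common library size by TMM, ± SD, n = 3 in each group) in WT with BafA1 and 588 ± 27.2 CPM in WT with DMSO, against 160 ± 19.5 CPM in Trem2 KO with BafA1 and 212 ± 11.0 CPM in Trem2 KO with DMSO, so the transcript was lower but not absent in KO. A 3' tag can lie outside a deleted part of a gene, and then it does not check the deletion.

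BafA1 is a macrolide that blocks the vacuolar ATPase, the pump that moves protons into lysosomes, endosomes and parts of the Golgi apparatus. When the pump stops, these compartments lose acidity, hydrolases stop working, and receptors and cargo that are sorted by pH are retained. Macrophages depend on acid compartments to digest what they take up, and they use a dense actin cortex, podosomes and many surface receptors to find and engulf it. Genes of lysosomes, sterol synthesis and stress signalling are the usual readouts of this drug, and the results here concern other classes of genes.

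By edgeR's quasi-likelihood test 5657 genes were called, meaning an adjusted p below 0.05, which is 46.9% of those tested. Of these, 2609 (21.6%) were higher and 3048 (25.3%) lower with BafA1, and the median log2 fold change over all tested genes was -0.044. A call with a change of at least 2-fold applied to 617 higher genes (5.12%) and 1226 lower genes (10.2%). For 6744 genes, or 56.0%, the 3 BafA1 libraries and the 3 DMSO libraries did not overlap. Shares of this size are the background against which each list below is to be read. Log2 fold changes are BafA1 over DMSO throughout and stand with their standard error (SE), and a gene is said to rise or fall only where it was called. Levels per library are in CPM, in the order of replicates 1, 2 and 3.

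Depth was similar in both groups, with totals of 5754608 to 6585984 estimated counts with BafA1 and 4790755 to 6457653 with DMSO, and RNA integrity numbers of 9.7 to 9.9. The first principal component of the 6 WT libraries held 76.7% of the variance and separated the treatments. The counts of WT DMSO replicate 3 differed more from those of replicates 1 and 2 (chi-square per degree of freedom over genes 5.55 and 4.47) than these did from each other (2.16). The WT BafA1 pairs lay at 2.42 to 2.95 and the 6 KO pairs at 3.03 to 5.63. Features of the mitochondrial genome made up 3.79% ± 0.064 of counts with BafA1 and 4.60% ± 0.31 with DMSO (SD, n = 3 each, two-sided exact permutation p = 0.1, the smallest that 3 against 3 allows, and 0.4 after adjustment over 4 library measures). All 10 defining macrophage markers were detected in both groups, with summed levels of 5564 to 6130 CPM in BafA1 libraries and 8069 to 8629 CPM in DMSO libraries, and 9 of the 10 fell while Cd68, a late endosomal glycoprotein, rose. Granulocyte markers summed to 46.5 to 58.3 CPM in BafA1 libraries and to 153 to 169.5 CPM in DMSO libraries, and lymphocyte and NK cell markers to 3.68 to 4.5 CPM in BafA1 libraries and to 9.15 to 11.1 CPM in DMSO libraries. Dendritic cell markers lay at 3.69 to 4.28 CPM with BafA1 and 6.05 to 7.35 CPM with DMSO, with Itgae and Xcr1 at 0 in all 6 libraries. Mast cell, basophil and eosinophil markers lay at 9.53 to 10.2 CPM with BafA1 and 6.28 to 8.12 CPM with DMSO, and stromal and endothelial markers at 19.8 to 30.4 CPM with BafA1 and 14.7 to 17.0 CPM with DMSO. With BafA1 most of the mast cell sum was Kit and most of the stromal sum was Kdr. Siglecf, Cxcl12 and Pecam1 of these lists were lower in every BafA1 library than in every DMSO library, but Siglecf was not called. Erythroid and megakaryocyte markers, mostly Pf4, summed to 49.2 to 59.4 CPM with BafA1 and to 174 to 249 CPM with DMSO, with Hba-a1, Hba-a2 and Hbb-bs at 0 throughout. In bulk RNA, fewer cells of a type and less RNA per cell cannot be told apart.

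Changes reached the most abundant transcripts of these cells. Actb (ENSMUSG00000029580), cytoplasmic beta-actin, stood at 3467, 3405 and 3737 CPM in the BafA1 libraries, against 12470.0, 12068 and 10101 CPM in the DMSO libraries. All 3 BafA1 libraries lay below all DMSO libraries (log2 fold change -1.71, SE 0.095, edgeR adjusted p 1.7e-12). Lpl, a secreted lipase, averaged 1544 ± 144 CPM with BafA1 and 6911 ± 595 CPM with DMSO (SD, n = 3 each). Tmsb4x, which sequesters actin monomers, averaged 1515 ± 30.2 CPM with BafA1 and 4586 ± 513 CPM with DMSO. In the other direction Fth1, the heavy chain of the iron store ferritin, stood at 13107, 15714 and 15448 CPM in the BafA1 libraries, against 9414, 8378 and 7293 CPM in the DMSO libraries (log2 fold change 0.82, SE 0.10). Fabp5, a fatty acid carrier, stood at 1988, 2105 and 2236 CPM in the BafA1 libraries, against 670.4, 621 and 632 CPM in the DMSO libraries (log2 fold change 1.72, SE 0.089). For both genes every BafA1 library lay above every DMSO library.

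More genes rose than fell in each of 6 lists of the secretory pathway. Proteins enter it through the Sec61 translocon of the endoplasmic reticulum (ER), receive N-glycans from the oligosaccharyltransferase, leave in vesicles coated with COPII, return from the Golgi in vesicles coated with COPI, and fuse with their target through SNARE proteins. Of 30 tested genes of the translocon, signal peptidase and oligosaccharyltransferase 28 rose and 0 fell, with a median log2 fold change of 0.65 beside -0.044 over all tested genes. Of 31 genes of ER exit and the COPII coat 27 rose and 0 fell (median 0.55), and of 17 genes of the COPI coat and the Arf cycle 14 rose and 0 fell (median 0.80). Genes of N-glycan precursors and hexosamines rose in 16 of 28 with 0 lower (median 0.57). Of the Golgi tethers 13 of 23 rose and 1 fell (median 0.41), and of the SNAREs 18 of 33 rose and 4 fell (median 0.35).

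Rpn1 (ribophorin I, a subunit of the oligosaccharyltransferase) stood at 737, 699 and 674 CPM in the BafA1 libraries, against 264, 255 and 239.9 CPM in the DMSO libraries. The groups did not overlap (log2 fold change 1.48, SE 0.090, edgeR adjusted p 7.1e-12). Sec61a1, which forms the channel itself, changed by 1.41 (log2, SE 0.11), and Ostc, another subunit of the transferase, by 1.17 (log2, SE 0.083). Sec23a, an inner coat protein of COPII, was at 52.02, 59.7 and 54.6 CPM in the BafA1 libraries, against 18.6, 16.8 and 18.2 CPM in the DMSO libraries (log2 fold change 1.63, SE 0.12). Each BafA1 value was more than 2-fold above each DMSO value. The outer coat gene Sec31a rose by 1.48 (log2, SE 0.088), and the cargo receptors Tmed2 and Surf4 rose by 1.16 (log2, SE 0.081) and 1.03 (log2, SE 0.086). Kdelr2, a receptor that returns escaped ER proteins, stood at 97.5, 111 and 103 CPM in the BafA1 libraries, against 36.9, 32.7 and 28.8 CPM in the DMSO libraries (log2 fold change 1.67, SE 0.13). Its paralog Kdelr3 had 15, 28 and 12 counts in the BafA1 libraries and 0 in every DMSO library, which makes it at least 17.0-fold higher against a floor of 3 counts over the DMSO group.

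In the COPI and Arf group Cope, a coat subunit, averaged 132 ± 1.56 CPM with BafA1 and 53.4 ± 4.83 CPM with DMSO (log2 fold change 1.31, SE 0.096). Arfgap3, which ends the Arf cycle at the Golgi, averaged 66.5 ± 2.86 CPM with BafA1 and 27.4 ± 4.03 CPM with DMSO (log2 fold change 1.29, SE 0.10). Gfpt1, the entry enzyme of hexosamine synthesis, stood at 169, 181 and 183 CPM in the BafA1 libraries, against 51.9, 64.3 and 53.4 CPM in the DMSO libraries, with no overlap (log2 fold change 1.65, SE 0.086). The nucleotide sugar enzyme Gmppb rose by 1.34 (log2, SE 0.098). Creb3, a transcription factor held in the ER membrane and released at the Golgi, averaged 107 ± 4.498 CPM with BafA1 and 40.2 ± 2.06 CPM with DMSO (log2 fold change 1.41, SE 0.091). The Golgi matrix genes Golga2 and Gorasp2 rose by 1.09 (log2, SE 0.092) and 0.99 (log2, SE 0.092). In the list of Golgi tethers and structural genes the 1 that fell was Gcc2, a long tether of the trans-Golgi, at 63.8, 60.2 and 61.7 CPM in the BafA1 libraries, against 67.5, 75.1 and 96.7 CPM in the DMSO libraries. Its change of -0.38 (log2, SE 0.14) was no longer called without WT DMSO replicate 3 (-0.19, adjusted p = 0.29), without any 1 of the 3 WT BafA1 libraries (adjusted p 0.065 to 0.11) or without KO DMSO replicate 1 (adjusted p 0.057). Among SNAREs, Stx3, a syntaxin of the plasma membrane, stood at 222, 221 and 228 CPM in the BafA1 libraries, against 61.7, 60.5 and 64.7 CPM in the DMSO libraries (log2 fold change 1.84, SE 0.086). Stx11 rose by 1.64 (log2, SE 0.11) and the Golgi SNARE Bet1l by 1.39 (log2, SE 0.085). Stx16, a syntaxin of the trans-Golgi, fell by 0.62 (log2, SE 0.13).

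Promoter sequences from RefSeq, covering 250 bases before to 50 bases after each start site on the build GRCm38.p6, were found for 8734 of 12039 tested symbols and for 138 members of the 6 secretory lists. The core site TGACGTGG, read on both strands and known as a core bound by ATF6 and XBP1, factors of the unfolded protein response, was in the promoter of 9 of these 138 genes (6.52%) and of 90 of all 8734 (1.03%). All 9 (Arf1, Copb1, Copb2, Gbf1, Kdelr3, Scfd1, Sec23a, Sec24d and Stx5a) were called higher, among 138 of which 93 were higher and 5 lower. The 4 whose match lies wholly before the start site are shown because they carry this shared element in genes of the COPI and COPII coats, the Arf cycle and ER retrieval, with the match in capitals (CCACGTCA is the reverse strand).
Sec24d: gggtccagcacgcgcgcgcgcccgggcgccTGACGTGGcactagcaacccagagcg
Copb1: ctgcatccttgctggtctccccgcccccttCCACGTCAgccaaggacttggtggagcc
Gbf1: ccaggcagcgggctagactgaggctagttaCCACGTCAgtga
Kdelr3: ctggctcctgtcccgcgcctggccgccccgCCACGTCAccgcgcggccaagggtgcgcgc

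These stretches lie at chr3:123267440-123267495 (plus strand) for Sec24d, chr7:114254681-114254738 (minus strand) for Copb1, chr19:46152516-46152557 (plus strand) for Gbf1 and chr15:79516348-79516407 (plus strand) for Kdelr3. Sec24d, a cargo-binding COPII subunit, averaged 269 ± 13.9 CPM with BafA1 and 110.3 ± 5.19 CPM with DMSO (log2 fold change 1.29, SE 0.10). Copb1, the beta subunit of COPI, averaged 247 ± 9.102 CPM with BafA1 and 141 ± 3.31 CPM with DMSO (log2 fold change 0.80, SE 0.073), and Gbf1, which activates Arf1 at the Golgi, averaged 64.9 ± 4.89 CPM with BafA1 and 30.05 ± 1.79 CPM with DMSO (log2 fold change 1.11, SE 0.12). The longer ER stress response element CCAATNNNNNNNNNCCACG, which shares the letters CCACG with the reverse strand of the core site, was in 6 of 482 promoters of genes called higher with a 2-fold change (1.24%), in 1 of 774 of those called lower with a 2-fold change (0.129%) and in 14 of all 8734 (0.16%). Among the 138 members of the secretory lists with a promoter, the longer element was in 1 (Alg12, 0.725%). A match is a run of letters and does not show that a factor was bound there.

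Most tested genes of the actin cytoskeleton fell. Macrophages build podosomes, which are actin-rich adhesion points, and ruffles that close around particles. Of 65 tested genes of actin, myosin and podosomes 43 fell and 8 rose (median log2 fold change -0.38), beside 25.3% of all tested genes lower and 21.6% higher. Actg1, the second cytoplasmic actin, stood at 554, 581 and 639 CPM in the BafA1 libraries, against 2236, 1944 and 1658 CPM in the DMSO libraries (log2 fold change -1.72, SE 0.094). Both actins have near-identical processed copies in the genome, so the split of reads between them and those copies is uncertain.

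Coro1a, a coronin that binds actin filaments in leukocytes, stood at 18.96, 17.9 and 22.6 CPM in the BafA1 libraries, against 99.1, 72.4 and 70.2 CPM in the DMSO libraries. Every BafA1 library was below every DMSO library (log2 fold change -2.02, SE 0.14, edgeR adjusted p 4.0e-11). Evl, which lengthens filaments at their tips, averaged 27.99 ± 1.204 CPM with BafA1 and 104 ± 8.73 CPM with DMSO (log2 fold change -1.9, SE 0.12). Fmnl1, a formin that nucleates them, averaged 18.2 ± 1.65 CPM with BafA1 and 54.5 ± 3.54 CPM with DMSO (log2 fold change -1.58, SE 0.12). Among genes of the links between filaments and adhesions, zyxin (Zyx) fell by 1.54 (log2, SE 0.18) and filamin A (Flna) fell by 1.06 (log2, SE 0.070). Gsn (gelsolin), which severs filaments, stood at 112, 112 and 122 CPM in the BafA1 libraries, against 269, 251 and 243 CPM in the DMSO libraries (log2 fold change -1.14, SE 0.087). The 8 genes that rose included moesin (Msn, log2 fold change 0.62, SE 0.072) and ezrin (Ezr, log2 fold change 0.49, SE 0.11), which tie actin to the membrane. Tmsb10, a relative of Tmsb4x, averaged 373 ± 28.6 CPM with BafA1 and 260.3 ± 17.6 CPM with DMSO (log2 fold change 0.52, SE 0.080).

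Fgd2, an exchange factor of the small GTPase Cdc42, stood at 1.51, 1.65 and 1.39 CPM in the BafA1 libraries, against 21.99, 19.5 and 25.2 CPM in the DMSO libraries (log2 fold change -3.85, SE 0.30). All 3 BafA1 values were below 2 CPM and all 3 DMSO values above 19 CPM. Arhgap4, a GTPase-activating protein, fell by 2.27 (log2, SE 0.18) and Dock8, another exchange factor, fell by 1.65 (log2, SE 0.14). Arhgap24, a GTPase-activating protein for Rac, went the other way at 16.4, 16.99 and 25.2 CPM in the BafA1 libraries, against 4.697, 4.04 and 3.12 CPM in the DMSO libraries (log2 fold change 2.32, SE 0.23). Of 59 tubulins and microtubule motors 14 rose and 18 fell. Tuba1a rose by 0.61 (log2, SE 0.090) and the kinesin Kif1c by 0.76 (log2, SE 0.078), while Tubb5 fell by 0.57 (log2, SE 0.080). Stmn1 (stathmin), which disassembles microtubules, stood at 44.6, 39.7 and 41.2 CPM in the BafA1 libraries, against 147, 144 and 158 CPM in the DMSO libraries (log2 fold change -1.84, SE 0.10).

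The CArG box, the element bound by serum response factor, which controls many actin genes, was searched on both strands. It was present in 5 of the 54 members of the actin, myosin and podosome list that had a promoter (9.26%) and in 132 of all 8734 (1.51%). All 5 (Actg1, Arpc4, Myl6, Myo1e and Vcl) were called lower, among 54 of which 36 were lower and 7 higher. They are shown because they are the members, among the 54 with a promoter, that hold this element in the searched window, with the box in capitals. Its first base lay between -250 (Arpc4) and -32 (Myo1e) relative to the start site.
Actg1: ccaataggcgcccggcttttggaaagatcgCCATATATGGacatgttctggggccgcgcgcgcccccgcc
Vcl: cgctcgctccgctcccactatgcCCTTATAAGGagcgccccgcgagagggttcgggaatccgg
Myo1e: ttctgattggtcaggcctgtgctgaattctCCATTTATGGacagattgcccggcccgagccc
Myl6: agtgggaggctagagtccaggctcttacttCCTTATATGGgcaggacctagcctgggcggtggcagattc
Arpc4: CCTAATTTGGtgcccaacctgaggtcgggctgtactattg

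On GRCm38.p6 the stretches lie at chr11:120348546-120348615 (minus strand) for Actg1, chr14:20929148-20929210 (plus strand) for Vcl, chr9:70207288-70207349 (plus strand) for Myo1e, chr10:128493020-128493089 (minus strand) for Myl6 and chr6:113377863-113377902 (plus strand) for Arpc4. Myo1e, a class I myosin that joins membrane to actin, averaged 115 ± 12.2 CPM with BafA1 and 232 ± 18.8 CPM with DMSO (log2 fold change -1.02, SE 0.093). Vinculin (Vcl), an adhesion protein, averaged 15.7 ± 0.759 CPM with BafA1 and 25.02 ± 2.09 CPM with DMSO (log2 fold change -0.67, SE 0.14). Arpc4, a subunit of the Arp2/3 complex, and Myl6, a myosin light chain, had smaller changes of -0.40 (log2, SE 0.076) and -0.36 (log2, SE 0.081). Over genes called lower with a 2-fold change, 24 of 774 promoters held the box (3.10%), and over those called higher with a 2-fold change 5 of 482 (1.04%).

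**Figure D1:**
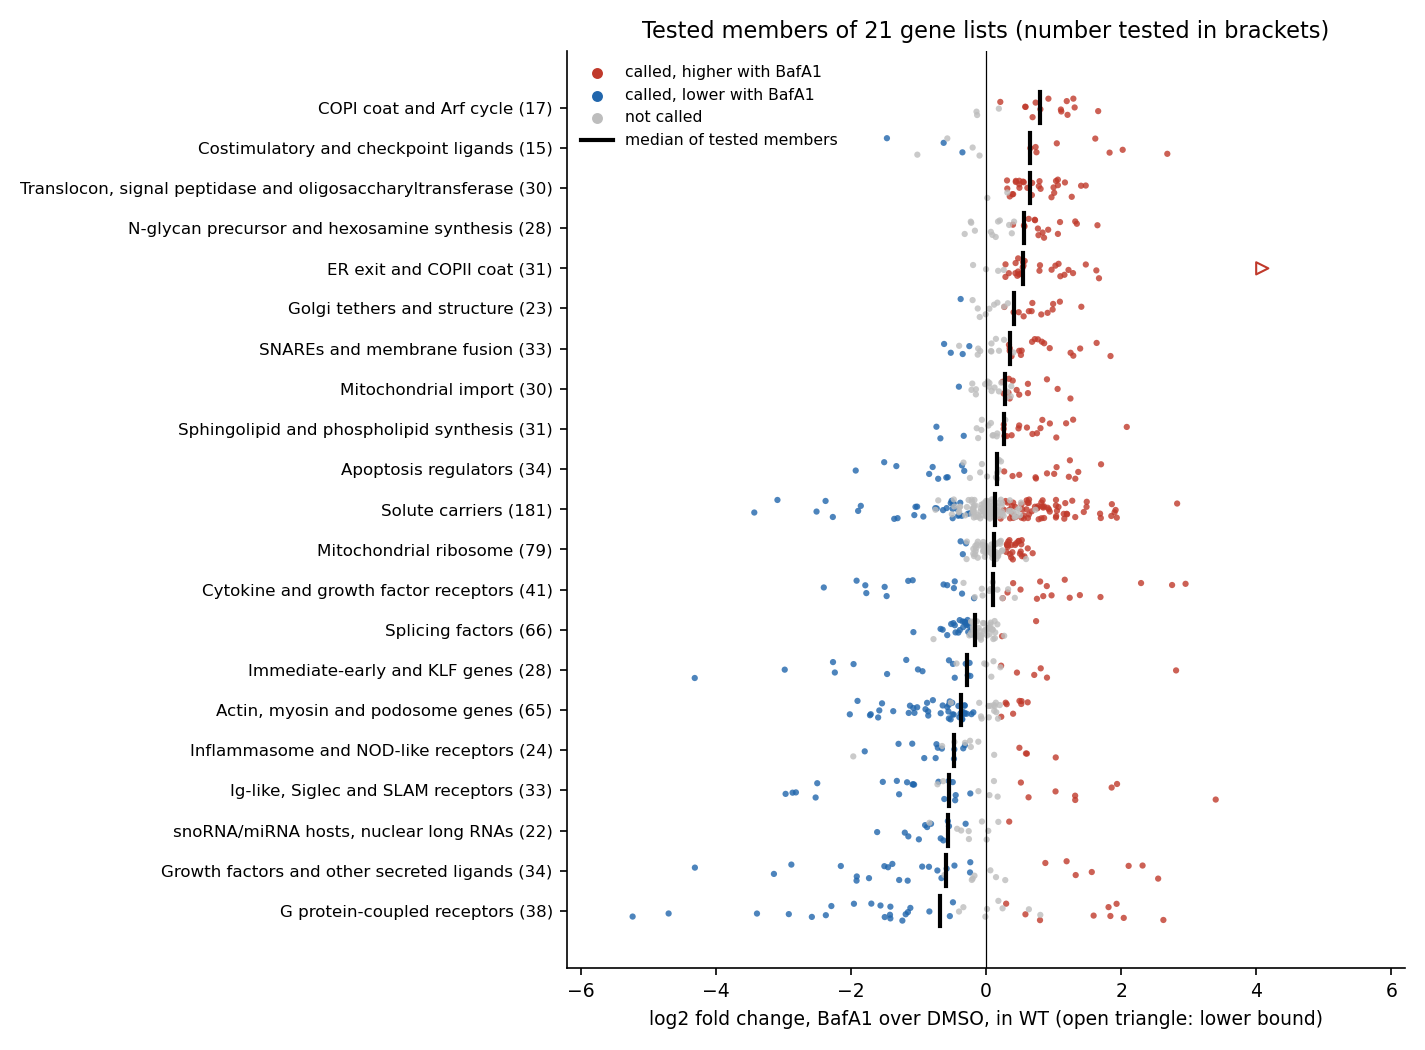
Each point is a tested member of 1 of 21 gene lists, placed by its log2 fold change of BafA1 over DMSO in WT and coloured by its call, and the bar is the median of the list. The secretory lists sit to the right of 0 (medians 0.35 to 0.80) and the actin, secreted ligand and G protein-coupled receptor lists to the left (medians -0.38 to -0.69), and Kdelr3 is drawn at its lower bound.

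Many receptors at the cell surface fell. Of 38 tested G protein-coupled receptors for lipids, nucleotides, protons and peptides 21 fell and 9 rose (median -0.69). Ccr3 and Ccr2 are receptors that guide leukocytes along chemokine gradients and are outside this list. Both were among the 12 steepest decreases of genes above 20 CPM without overlap between the groups. Cx3cr1, the fractalkine receptor of monocytes and macrophages, stood at 58.1, 38.05 and 36.3 CPM in the BafA1 libraries, against 406, 405 and 397 CPM in the DMSO libraries (log2 fold change -3.19, SE 0.18). Both receptors for the complement fragment C5a fell. C5ar1 averaged 35.3 ± 3.08 CPM with BafA1 and 173 ± 29.2 CPM with DMSO (log2 fold change -2.29, SE 0.12). C5ar2 averaged 1.23 ± 0.678 CPM with BafA1 and 12.9 ± 1.75 CPM with DMSO (log2 fold change -3.39, SE 0.30). The receptor for C3a, C3ar1, fell by 1.42 (log2, SE 0.10). In the same libraries the granulocyte marker sum was 46.5 to 58.3 CPM with BafA1 and 153 to 169.5 CPM with DMSO, and its part in these decreases was not tested. Of eosinophil markers, which bear on Ccr3, Epx was at 0 in 5 of the 6 libraries and Siglecf at 3.48 to 3.86 CPM with BafA1 and 4.21 to 6.68 CPM with DMSO.

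In the same list Gpr65, which senses extracellular protons and signals through cyclic AMP in acid surroundings, stood at 28.5, 27.2 and 33.01 CPM in the BafA1 libraries, against 162, 153 and 144 CPM in the DMSO libraries (log2 fold change -2.37, SE 0.10, edgeR adjusted p 3.1e-14). Every BafA1 library was below every DMSO library. Nucleotide receptors moved in both directions. P2ry1, which responds to ADP, averaged 42.7 ± 3.16 CPM with BafA1 and 10.5 ± 1.64 CPM with DMSO (log2 fold change 2.04, SE 0.16). P2ry2, which responds to ATP and UTP, averaged 34.1 ± 0.141 CPM with BafA1 and 11.5 ± 1.88 CPM with DMSO (log2 fold change 1.59, SE 0.13). P2ry12, another ADP receptor, was at a low level and fell, with 0.168, 0 and 0.521 CPM in the BafA1 libraries, against 2.14, 2.36 and 1.04 CPM in the DMSO libraries (log2 fold change -2.92, SE 0.74). Gpr34, a receptor for lysophosphatidylserine, stood at 1.17, 0.752 and 0.869 CPM in the BafA1 libraries, against 29.5, 26.8 and 18.4 CPM in the DMSO libraries (log2 fold change -4.7, SE 0.33). Of the prostaglandin receptors Ptgir, for prostacyclin, rose by 2.63 (log2, SE 0.25) and Ptger4, for prostaglandin E2, fell by 1.5 (log2, SE 0.13). Gpr183 and S1pr1, which steer leukocytes by oxysterols and by sphingosine-1-phosphate, fell by 1.96 (log2, SE 0.11) and 1.24 (log2, SE 0.11).

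Transporters of protons, metals and organic acids changed in both directions. Of 19 genes of pH regulation 7 rose and 5 fell. Slc9a9, a sodium-proton exchanger of endosomes, stood at 4.36, 5.26 and 3.82 CPM in the BafA1 libraries, against 47.8, 57.9 and 41.2 CPM in the DMSO libraries, without overlap (log2 fold change -3.43, SE 0.19). Slc4a7, a bicarbonate importer, averaged 91.6 ± 3.62 CPM with BafA1 and 186 ± 5.28 CPM with DMSO (log2 fold change -1.02, SE 0.085). Hvcn1, the voltage-gated proton channel that lets acid out of the cell, stood at 60.6, 63.3 and 54.9 CPM in the BafA1 libraries, against 26.9, 21.2 and 21.5 CPM in the DMSO libraries (log2 fold change 1.37, SE 0.15). Car13, a cytosolic carbonic anhydrase, rose by 1.2 (log2, SE 0.15).

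Over all 181 tested solute carriers 65 rose and 30 fell (median 0.13), a group in which the higher share exceeded the 21.6% of all genes. Genes of metal transport were among those that rose, such as the copper transporters Slc31a1 (log2 fold change 1.16, SE 0.10) and Slc31a2 (log2 fold change 1.28, SE 0.087). Slc11a2, which carries iron out of endosomes, stood at 205, 192 and 181 CPM in the BafA1 libraries, against 65.3, 64.5 and 74.9 CPM in the DMSO libraries (log2 fold change 1.49, SE 0.083). Slc25a37, which brings iron into mitochondria, averaged 52.3 ± 2.21 CPM with BafA1 and 13.7 ± 2.61 CPM with DMSO (log2 fold change 1.92, SE 0.15). Slc7a11, the cystine importer, rose by 2.83 (log2, SE 0.25) and Slc7a2, an arginine importer, by 1.9 (log2, SE 0.21). Slc37a2, a sugar phosphate exchanger of macrophages, fell to 56.2, 64.97 and 76.1 CPM in the BafA1 libraries, against 363, 369.9 and 390.3 CPM in the DMSO libraries (log2 fold change -2.51, SE 0.097). Slc13a3, a dicarboxylate importer, fell by 3.09 (log2, SE 0.33). Of 41 ion channel and calcium store genes 12 rose and 12 fell. The calcium channel subunit Cacna1d fell by 2.32 (log2, SE 0.16). The calcium pump of the ER, Atp2a2, and the stretch-activated channel Piezo1 rose by 0.74 (log2, SE 0.093) and 0.60 (log2, SE 0.095).

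**Figure D2:**
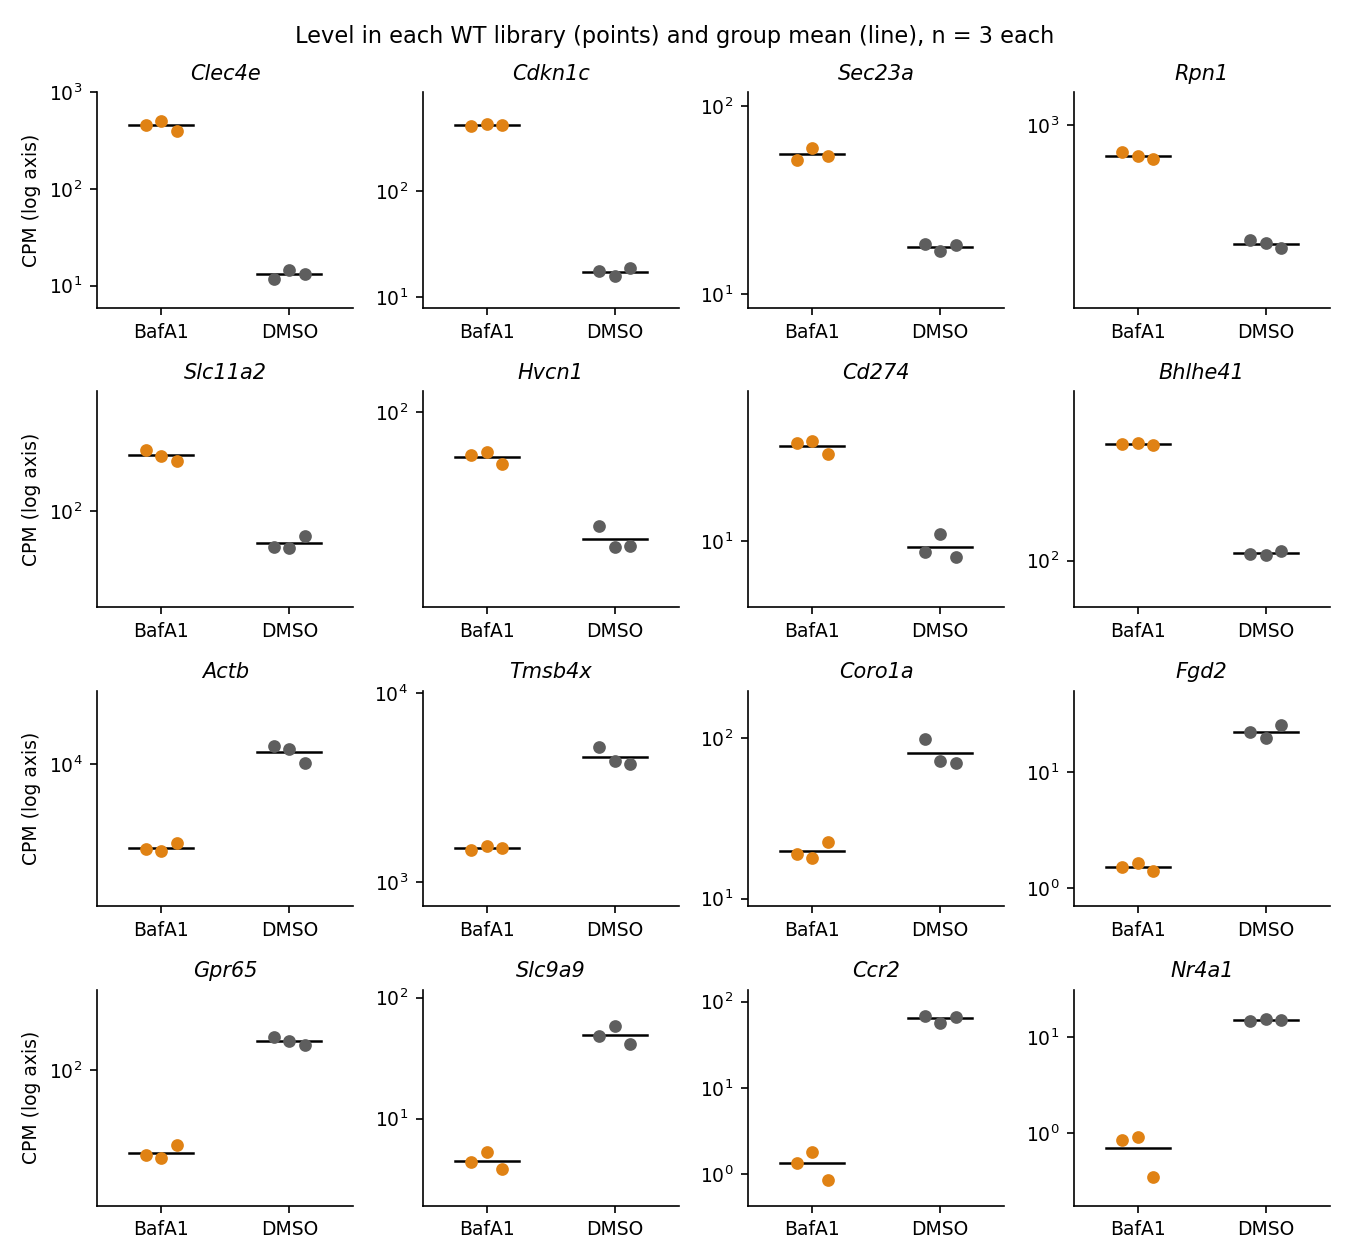
Levels of 16 genes in each WT library are shown as points (CPM, log axes) with the group mean as a line, BafA1 left of DMSO, n = 3 each. The groups do not overlap for any of the 16, with the upper 8 genes higher and the lower 8 lower in BafA1 libraries. For Clec4e, Cdkn1c and Ccr2 the lack of overlap was a condition of their choice.

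Of 41 cytokine and growth factor receptors 16 rose and 14 fell. Il11ra1, the interleukin-11 receptor chain, stood at 616, 532 and 522 CPM in the BafA1 libraries, against 183, 151 and 182 CPM in the DMSO libraries (log2 fold change 1.69, SE 0.095). Tnfrsf26, a TNF receptor family member, stood at 74.3, 79.9 and 93.8 CPM in the BafA1 libraries, against 13.5, 10.1 and 13.2 CPM in the DMSO libraries (log2 fold change 2.75, SE 0.13). In both cases all BafA1 libraries were above all DMSO libraries. Il2rg, the common gamma chain, rose by 1.17 (log2, SE 0.11) and Il7r, the interleukin-7 receptor, by 0.80 (log2, SE 0.081). Kit, the stem cell factor receptor and a mast cell marker, rose to 5.54, 6.02 and 6.26 CPM in the BafA1 libraries, against 0.427, 0.842 and 0.8901 CPM in the DMSO libraries (log2 fold change 2.95, SE 0.50). Of other mast cell markers, Tpsb2 was at 0 in all 6 libraries and Cpa3 at 0 in all but 1 DMSO library. On the other side Tnfrsf11a (RANK), the receptor that drives osteoclast formation, stood at 34.2, 30.5 and 35.4 CPM in the BafA1 libraries, against 176, 176 and 177 CPM in the DMSO libraries (log2 fold change -2.4, SE 0.10). Il10ra, for interleukin-10, fell by 1.92 (log2, SE 0.15), and Mertk, which recognises dying cells, fell by 1.77 (log2, SE 0.12). Csf1r, the receptor for M-CSF, had a change of -0.58 (log2, SE 0.085).

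Secreted growth factors and ligands fell in 20 of 34 and rose in 7 (median -0.60). Igf1, insulin-like growth factor 1 and an abundant product of these cells, stood at 550.1, 529 and 552 CPM in the BafA1 libraries, against 1497, 1442 and 1329 CPM in the DMSO libraries. The groups did not overlap (log2 fold change -1.39, SE 0.080, edgeR adjusted p 2.6e-12). Pf4, a platelet chemokine that macrophages also make, averaged 54.8 ± 5.43 CPM with BafA1 and 208 ± 37.5 CPM with DMSO (log2 fold change -1.92, SE 0.15). Thbs1 (thrombospondin 1) averaged 0.664 ± 0.209 CPM with BafA1 and 5.97 ± 0.418 CPM with DMSO (log2 fold change -3.14, SE 0.40). Apolipoprotein E (Apoe), which carries lipids out of the cell, averaged 1385 ± 148 CPM with BafA1 and 2487 ± 23.5 CPM with DMSO (log2 fold change -0.84, SE 0.15). All 3 fell, and the levels of Thbs1 were near the detection limit with BafA1. The 7 that rose included Vegfb, a growth factor of vessels, at 35.6, 36.5 and 37.01 CPM in the BafA1 libraries, against 12.6, 11.8 and 12.5 CPM in the DMSO libraries (log2 fold change 1.57, SE 0.13). Angptl6 rose by 2.55 (log2, SE 0.24) and Nampt, an enzyme of NAD synthesis that is also secreted, by 1.19 (log2, SE 0.076).

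Of 47 genes of the extracellular matrix 15 could be tested, and 5 rose and 7 fell. Lox, which cross-links collagen, stood at 13.6, 9.77 and 12.7 CPM in the BafA1 libraries, against 2.14, 1.18 and 0 CPM in the DMSO libraries (log2 fold change 3.57, SE 0.43). The collagen hydroxylases P4ha2 and P4ha1 rose by 2.3 (log2, SE 0.26) and 0.71 (log2, SE 0.099). Fibronectin (Fn1) fell to 3.19, 1.96 and 1.91 CPM with BafA1, against 14.3, 14.3 and 8.75 CPM with DMSO (log2 fold change -2.38, SE 0.29). Tgfbi, an adhesive matrix protein, averaged 114 ± 13.7 CPM with BafA1 and 216 ± 11.99 CPM with DMSO (log2 fold change -0.92, SE 0.18). Stromal cells also make matrix. Of the 12 stromal and endothelial markers 3 could be tested, of which Kdr rose and Cxcl12 and Pecam1 fell. Cxcl12 stood at 0.781, 1.78 and 3.72 CPM in the BafA1 libraries, against 6.31, 6.54 and 4.26 CPM in the DMSO libraries (log2 fold change -1.45, SE 0.37), and Col1a2 at 0.378 to 0.865 CPM with BafA1 and 0.427 to 2.24 CPM with DMSO. Their part in the matrix changes was not tested.

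Receptors of the immunoglobulin, Siglec and SLAM families, which tune activation through inhibitory or activating motifs, fell in 19 of 33 and rose in 8, with a median of -0.55 that came to -0.24 over the members with at least 10 CPM in 3 libraries. Cd33, a Siglec with inhibitory motifs in human cells, went the other way, at 73, 75.5 and 83.2 CPM in the BafA1 libraries, against 9.18, 6.401 and 6.68 CPM in the DMSO libraries (log2 fold change 3.4, SE 0.15). Cd200r4 (log2 fold change 1.94, SE 0.099) and Slamf8 (log2 fold change 1.86, SE 0.15) also rose. Cd200r4 belongs to a family of close copies, so its reads may be shared with its neighbours. Slamf9 fell by 2.82 (log2, SE 0.25) and Vsir, the checkpoint receptor VISTA, fell by 1.09 (log2, SE 0.095). Clec4e (Mincle), a C-type lectin that recognises mycobacterial glycolipids, stood at 463, 505 and 399 CPM in the BafA1 libraries, against 11.7, 14.7 and 13.1 CPM in the DMSO libraries (log2 fold change 5.1, SE 0.24). Another C-type lectin, Clec4b1, stood at 2.35, 1.65 and 2.95 CPM in the BafA1 libraries, against 90.3, 88.4 and 76.7 CPM in the DMSO libraries (log2 fold change -5.2, SE 0.30). These lectins, outside the list, moved in opposite directions. Neither overlapped between the groups, which was a condition of their choice as largest changes.

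Ligands that brake or help T cells rose in 8 of 15 and fell in 3 (median 0.66). Cd274 (PD-L1), which inhibits T cells through PD-1, stood at 38.8, 39.7 and 33.4 CPM in the BafA1 libraries, against 8.54, 10.9 and 8.01 CPM in the DMSO libraries (log2 fold change 2.02, SE 0.15, edgeR adjusted p 1.4e-10). Cd200, which inhibits myeloid cells, stood at 59.9, 53.4 and 54.04 CPM in the BafA1 libraries, against 16.4, 11.1 and 19.3 CPM in the DMSO libraries (log2 fold change 1.83, SE 0.16). Cd24a, a small glycoprotein, stood at 35.1, 49.2 and 46.9 CPM in the BafA1 libraries, against 6.62, 6.74 and 6.97 CPM in the DMSO libraries (log2 fold change 2.68, SE 0.21). The treatments did not overlap for any of these 3 genes. Genes of inflammasomes and NOD-like receptors fell in 12 of 24 and rose in 4 (median -0.47). Txnip, which activates NLRP3, fell by 1.09 (log2, SE 0.11) and Casp1, the effector protease, fell by 0.47 (log2, SE 0.093). The DNA sensor Aim2 rose by 0.60 (log2, SE 0.095). Of 16 genes of alternative activation 2 rose and 6 fell. Clec10a, a galactose lectin, stood at 0.336, 0.602 and 0.695 CPM in the BafA1 libraries, against 6.83, 6.06 and 7.86 CPM in the DMSO libraries (log2 fold change -3.62, SE 0.40). Of 17 tetraspanins 7 rose and 4 fell, and Cd82 was among the higher ones (log2 fold change 1.48, SE 0.14).

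Immediate-early and Krüppel-like factor genes, which answer growth factors and stress within minutes, fell in 16 of 28 and rose in 6 (median -0.29). Fos stood at 13.8, 18.6 and 17.9 CPM in the BafA1 libraries, against 125, 141 and 132 CPM in the DMSO libraries (log2 fold change -2.98, SE 0.12, edgeR adjusted p 3.1e-14). Every DMSO library exceeded every BafA1 library. Egr1 fell by 2.24 (log2, SE 0.27) and Klf2 fell by 1.47 (log2, SE 0.16). Zfp36l1 and Zfp36, related proteins that bind AU-rich elements and speed the decay of mRNAs, fell as well. Zfp36l1 stood at 8.89, 8.12 and 7.82 CPM in the BafA1 libraries, against 181, 175 and 140.5 CPM in the DMSO libraries (log2 fold change -4.31, SE 0.17). Zfp36 averaged 50.1 ± 6.401 CPM with BafA1 and 195 ± 8.36 CPM with DMSO (log2 fold change -1.96, SE 0.098). Jun, the partner of Fos, went the other way, averaging 244 ± 19.01 CPM with BafA1 and 139 ± 10.2 CPM with DMSO (log2 fold change 0.81, SE 0.098). Maff, a small Maf protein, stood at 13.4, 15.6 and 13.9 CPM in the BafA1 libraries, against 2.78, 1.18 and 2.23 CPM in the DMSO libraries (log2 fold change 2.81, SE 0.29).

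Among 16 circadian clock genes 5 rose and 3 fell. Bhlhe41 and Bhlhe40, repressors of the clock, both rose. Bhlhe41 stood at 471, 476 and 466 CPM in the BafA1 libraries, against 109, 107 and 114 CPM in the DMSO libraries (log2 fold change 2.1, SE 0.091). Bhlhe40 averaged 125 ± 2.63 CPM with BafA1 and 34.5 ± 4.79 CPM with DMSO (log2 fold change 1.85, SE 0.095). Cry1, another repressor, rose by 1.11 (log2, SE 0.13), and Dbp, an output factor of the clock, fell by 2.03 (log2, SE 0.24). All libraries are from 22 hours. Of 20 nuclear receptors 1 rose and 6 fell. Rora rose (log2 fold change 0.91, SE 0.073) and Pparg, a regulator of lipid uptake in macrophages, fell (log2 fold change -1.31, SE 0.16). Nr4a1, an orphan receptor induced by many stimuli, stood at 0.839, 0.902 and 0.348 CPM in the BafA1 libraries, against 14.7, 15.5 and 15.1 CPM in the DMSO libraries (log2 fold change -4.38, SE 0.31). In the TGF-beta, BMP, Notch and Wnt list 14 of 39 fell and 6 rose. The BMP target Id1 averaged 5.18 ± 1.23 CPM with BafA1 and 31.4 ± 6.35 CPM with DMSO (log2 fold change -2.62, SE 0.19), and its relative Id3 averaged 38.1 ± 2.25 CPM with BafA1 and 166 ± 23.1 CPM with DMSO (log2 fold change -2.13, SE 0.12). Ctnnb1 (beta-catenin) stood at 1619, 1638 and 1591 CPM in the BafA1 libraries, against 764, 774 and 839 CPM in the DMSO libraries (log2 fold change 1.03, SE 0.071). Of 15 semaphorins, plexins and related genes 6 rose and 4 fell. Plxna1, a semaphorin receptor, stood at 244, 232 and 245 CPM in the BafA1 libraries, against 76.9, 78.3 and 81.2 CPM in the DMSO libraries (log2 fold change 1.61, SE 0.10). Nrp1 (neuropilin 1), a co-receptor of plexins, fell by 1.04 (log2, SE 0.080).

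Regulators of apoptosis changed on both sides, with 13 of 34 higher and 10 lower. Among genes that protect cells Bcl2 stood at 36.1, 34.6 and 32.1 CPM in the BafA1 libraries, against 13.02, 13.1 and 13.6 CPM in the DMSO libraries (log2 fold change 1.37, SE 0.13). Cflar, an inhibitor of caspase activation, averaged 194 ± 11.3 CPM with BafA1 and 81.6 ± 7.59 CPM with DMSO (log2 fold change 1.24, SE 0.089). Bcl2a1d, which has near-identical copies that could share its reads, rose as well (log2 fold change 1.23, SE 0.12). Of the BH3-only genes that promote death, Bcl2l11 (BIM) stood at 94.8, 101 and 99.04 CPM in the BafA1 libraries, against 289, 304 and 246 CPM in the DMSO libraries (log2 fold change -1.51, SE 0.091). Bmf fell by 1.33 (log2, SE 0.22), whereas Bbc3 (PUMA), Bid and Bnip3 rose by 1.04 (log2, SE 0.12), 1.01 (log2, SE 0.12) and 1.32 (log2, SE 0.11). Among 25 targets of p53 5 rose and 6 fell. Sesn1, which restrains growth signalling, averaged 21.1 ± 1.55 CPM with BafA1 and 114 ± 6.95 CPM with DMSO (log2 fold change -2.44, SE 0.12). Of 45 phosphoinositide kinases and phosphatases 11 rose and 17 fell. The 5-phosphatases Inpp5d (SHIP1) and Inppl1 (SHIP2) fell by 1.01 (log2, SE 0.087) and 1.26 (log2, SE 0.096). Pik3cd, the leukocyte isoform of PI3-kinase, and the adaptor Pik3ap1 fell by 1.29 (log2, SE 0.10) and 1.21 (log2, SE 0.082).

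Of 13 genes of arginine, tryptophan and itaconate metabolism 5 were tested, and 3 rose and 0 fell. Acod1, which makes the antimicrobial metabolite itaconate, stood at 40.1, 41.96 and 36.7 CPM in the BafA1 libraries, against 1.28, 0.674 and 1.78 CPM in the DMSO libraries (log2 fold change 4.94, SE 0.32). Ass1, which recycles citrulline to arginine, rose by 2.77 (log2, SE 0.32), and Gch1, the entry enzyme to the cofactor tetrahydrobiopterin, by 1.19 (log2, SE 0.11). Synthesis of sphingolipids and phospholipids rose in 17 of 31 and fell in 3 (median 0.27). The sphingomyelin synthase Sgms2 stood at 35.7, 27.5 and 29.4 CPM in the BafA1 libraries, against 7.05, 7.58 and 7.12 CPM in the DMSO libraries (log2 fold change 2.08, SE 0.20). The glucosylceramide synthase Ugcg (log2 fold change 1.29, SE 0.15) and Kdsr, an early enzyme of ceramide synthesis (log2 fold change 1.19, SE 0.12), rose too. Outside the list Mgll, which releases fatty acids from monoacylglycerol, stood at 97.8, 79.3 and 71.2 CPM in the BafA1 libraries, against 7.26, 5.05 and 7.86 CPM in the DMSO libraries (log2 fold change 3.62, SE 0.17). No BafA1 library overlapped a DMSO library for Acod1, Sgms2 or Mgll. For Acod1 and Mgll this was a condition of their choice as largest changes. The remaining metabolic lists were mixed, with 5 of 22 beta-oxidation genes higher and 6 lower, and 6 of 23 genes of the tricarboxylic acid cycle higher and 3 lower. Further, 3 of 18 genes of nucleotide synthesis were higher and 7 lower, 2 of 10 genes of polyamine metabolism higher and 5 lower, and 1 of 8 genes of the pentose phosphate pathway higher and 2 lower.

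Mitochondrial import genes rose in 13 of 30 and fell in 1 (median 0.28). Grpel1, a cofactor of the import motor, stood at 105, 101 and 91.2 CPM in the BafA1 libraries, against 45.1, 39.4 and 41.1 CPM in the DMSO libraries (log2 fold change 1.25, SE 0.094), and Timm8b, a small chaperone of the intermembrane space, also rose (log2 fold change 1.06, SE 0.10). Genes of the mitochondrial ribosome rose in 24 of 79 and fell in 3 (median 0.12). Translation factors rose in 22 of 67 and fell in 5 (median 0.086, against 0.15 without WT DMSO replicate 1 and 0.13 without WT BafA1 replicate 2), and Eif1a, which helps the ribosome find start codons, was among them (log2 fold change 1.14, SE 0.077). Of 52 genes of ribosome biogenesis 13 rose and 5 fell, and of 56 genes of the nuclear pore and import 11 rose and 12 fell. The importins Ipo4 and Ipo5 rose by 0.97 (log2, SE 0.13) and 0.90 (log2, SE 0.083).

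In genes of RNA processing more fell than rose, beside 25.3% of all tested genes lower and 21.6% higher. Of 66 splicing factors 23 fell and 2 rose (median -0.16), and the share called, 37.9%, was below the 46.9% of all tested genes. Hnrnph1, a splicing regulator, stood at 55.5, 59.3 and 58.2 CPM in the BafA1 libraries, against 103, 111 and 149 CPM in the DMSO libraries (log2 fold change -1.08, SE 0.11). Hnrnpa2b1, which binds nascent RNA, averaged 404 ± 7.53 CPM with BafA1 and 629.8 ± 54.4 CPM with DMSO (log2 fold change -0.64, SE 0.072). Of 22 snoRNA and microRNA host genes and nuclear long RNAs 12 fell and 1 (Norad) rose (median -0.56). Without WT DMSO replicate 3 the median of that list was -0.29, with 9 lower and 1 higher, and of the splicing factors 20 were lower and 1 higher. Malat1, an abundant RNA of nuclear speckles, stood at 1694, 1682 and 1834 CPM in the BafA1 libraries, against 3528, 4084 and 4380.3 CPM in the DMSO libraries (log2 fold change -1.2, SE 0.080). Gas5, a snoRNA host, fell by 0.55 (log2, SE 0.097). Neat1, the scaffold of paraspeckles, stood at 52.4, 38.6 and 52.1 CPM in the BafA1 libraries, against 83.7, 104 and 244 CPM in the DMSO libraries (log2 fold change -1.61, SE 0.28). WT DMSO replicate 3 was the highest library for Hnrnph1, Hnrnpa2b1, Malat1 and Neat1. Without it the log2 fold change of Neat1 was -0.97 (edgeR adjusted p 0.00028), that of Hnrnph1 -0.88, that of Hnrnpa2b1 -0.55 and that of Malat1 -1.12. Among 287 tested genes whose symbol starts with Zfp 24 rose and 40 fell, so 22.3% were called, also below the share of all tested genes.

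Several of the largest changes lay outside these lists. Cdkn1c (p57), an inhibitor of cyclin-dependent kinases, stood at 411, 436 and 429 CPM in the BafA1 libraries, against 17.5, 15.8 and 18.8 CPM in the DMSO libraries (log2 fold change 4.61, SE 0.12, edgeR adjusted p 7.4e-18). Dio2, which activates thyroid hormone, stood at 342, 302 and 319 CPM in the BafA1 libraries, against 26.05, 27.1 and 35.6 CPM in the DMSO libraries (log2 fold change 3.43, SE 0.18). Itgb3, the beta chain of a vitronectin receptor, stood at 49.3, 56.1 and 44.3 CPM in the BafA1 libraries, against 3.63, 3.201 and 4.01 CPM in the DMSO libraries (log2 fold change 3.78, SE 0.16). For none of these 3 genes did the groups overlap, which was a condition for being chosen among the largest changes. Ly75 (DEC-205), an endocytic lectin-like receptor of dendritic cells, rose by 4.78 (log2, SE 0.41). The 12 dendritic cell markers summed to 3.69 to 4.28 CPM with BafA1 and 6.05 to 7.35 CPM with DMSO, and their part in this increase was not tested. Clmp, an adhesion molecule of tight junctions, rose by 3.69 (log2, SE 0.34), Bex1 by 3.33 (log2, SE 0.17), and Tent5c, a poly(A) polymerase, by 3.29 (log2, SE 0.12). On the lower side Slco2b1, an importer of organic anions, stood at 0.503, 0.752 and 0.521 CPM in the BafA1 libraries, against 29.9, 29.6 and 21.5 CPM in the DMSO libraries (log2 fold change -5.44, SE 0.31). Hpgd, which inactivates prostaglandins, stood at 1.85, 0.902 and 0.174 CPM in the BafA1 libraries, against 28.4, 30.5 and 19.4 CPM in the DMSO libraries (log2 fold change -4.7, SE 0.39). Plxdc2 fell by 4.49 (log2, SE 0.33), Cytip, an adaptor of leukocyte adhesion, fell by 3.92 (log2, SE 0.18), and Zfyve28, an endosomal protein, fell by 3.91 (log2, SE 0.23).

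The same contrast in Trem2 KO macrophages allowed a test of where the response differed between the genotypes. The difference of the responses, WT minus KO, was called for 1062 genes (8.81%). Of the 5657 genes called in WT, 3448 were called in the same direction in KO and 72 in the opposite direction. Among the 1062, 488 had responses of the same sign that were larger in WT, and 100 had responses of the same sign that were larger in KO. Another 474 had responses of opposite sign, counted by sign alone whether or not each response was called. The count of differences was 665 without WT DMSO replicate 2 and 695 without KO DMSO replicate 2. Actb changed by -1.71 (log2, SE 0.095) in WT and -1.63 (log2, SE 0.095) in KO (difference -0.080, SE 0.13). Coro1a changed by -2.02 (log2, SE 0.14) in WT and -1.76 (log2, SE 0.14) in KO (difference -0.25, SE 0.20). Neither difference was called, which does not show that the responses are equal.

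Several increases were larger in WT, among genes that were chosen for their change in WT. On the log2 scale Cdkn1c changed by 4.61 in WT and 2.22 in KO (difference 2.38, SE 0.15, edgeR adjusted p 2.9e-09). Dio2 changed by 3.43 in WT and 0.81 in KO (difference 2.62, SE 0.24, adjusted p 1.0e-06). Cd274 changed by 2.02 in WT and 0.59 in KO (difference 1.44, SE 0.20, adjusted p 9.7e-05). In KO the DMSO level of these genes was higher than in WT. With DMSO Cdkn1c averaged 17.4 CPM in WT and 70.6 CPM in KO, and with BafA1 425 and 331 CPM. Dio2 averaged 29.6 CPM in WT and 144 CPM in KO with DMSO, and 321 and 253 CPM with BafA1. Cd274 averaged 9.17 CPM in WT and 26.9 CPM in KO with DMSO, and 37.3 and 40.5 CPM with BafA1. For the proton sensor Gpr65 the difference was 0.14 (log2, SE 0.15, adjusted p 0.61). Stmn1 fell in WT with -1.84 (log2, SE 0.10) and stood at 0.18 (log2, SE 0.13) in KO (difference -2.02, SE 0.17, adjusted p 2.2e-07). Fn1 changed by -2.38 (log2, SE 0.29) in WT and by -0.021 (log2, SE 0.35) in KO (difference -2.36, SE 0.46, adjusted p 0.0025).

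**Figure D3:**
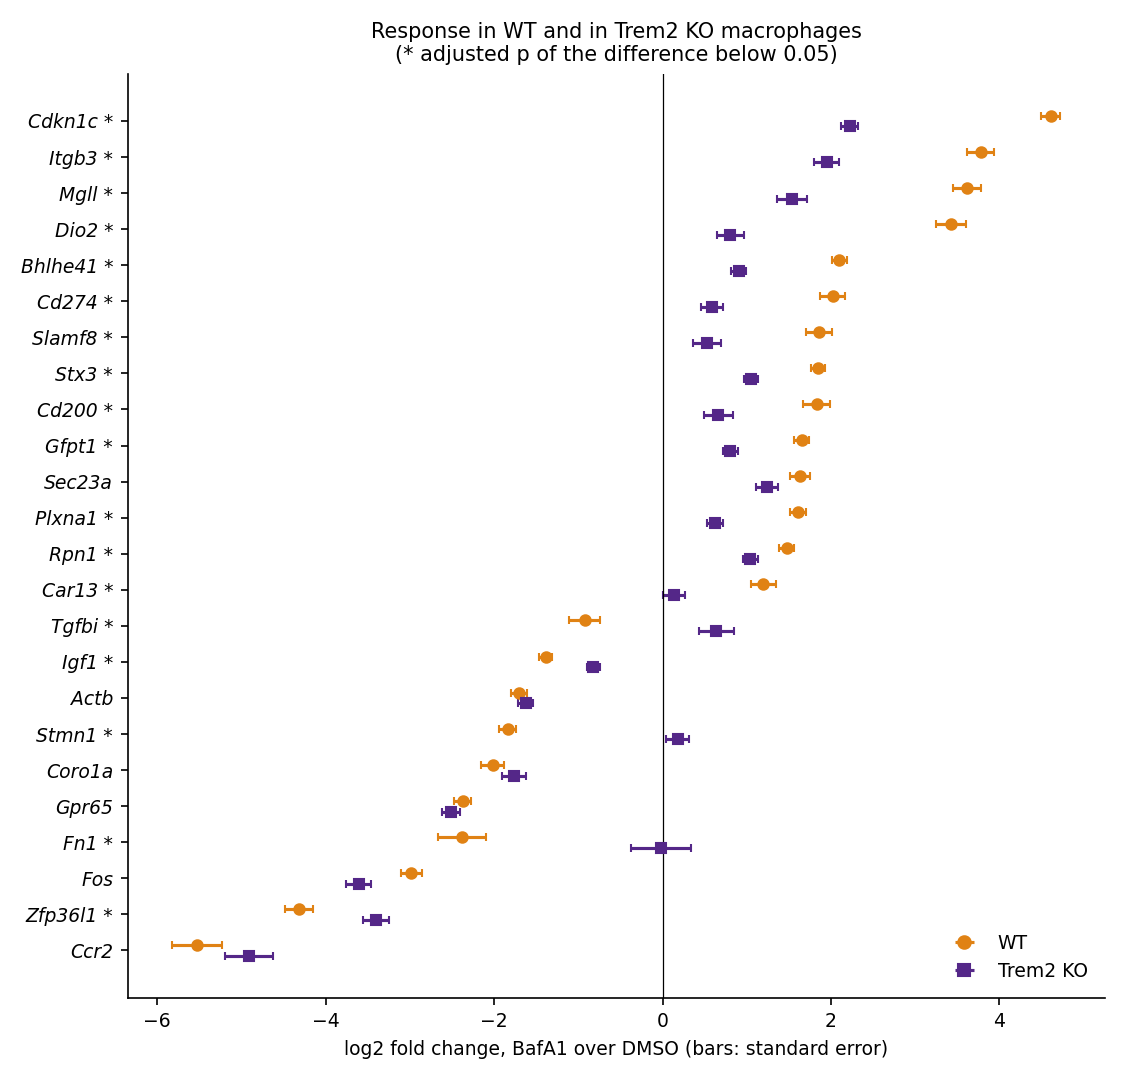
Log2 fold changes of BafA1 over DMSO are drawn for 24 genes named in the text, with WT as circles and Trem2 KO as squares and bars of 1 standard error, and a star marks the 18 genes whose difference was called. Starred increases lie farther to the right in WT, while Actb, Coro1a, Ccr2, Gpr65, Fos and Sec23a carry no star.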

How the data were processed

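The authors counted UMI-tagged 3' reads (QuantSeq 3' FWD) with Salmon against GRCm39, per the submitters' processing notes, which give no versions. The deposited table holds estimated counts per gene for 56980 features in 12 samples; 42.0% of its nonzero values are not whole, so they were rounded. No strand setting is stated, so reads of overlapping genes on opposite strands may not be told apart. The test was edgeR's (version 4.0.16, R 4.3.3), with TMM factors and filterByExpr (minimum count 10, minimum total 15). It used 1 quasi-likelihood fit of 12 libraries in 4 groups, Benjamini-Hochberg adjustment over 12052 genes and a threshold of 0.05. The steps were first run on data simulated from the same fit, with few changed genes in random directions. Here 46.9% of genes were called, so that run cannot show how the test behaves in this setting. The replicates are biological per the labels, each from marrow pooled over several animals. The p-values rest on the spread between libraries, estimated over all 4 groups together, and not on the spread between single animals. limma 3.58.1 and DESeq2 1.42.0 served as alternatives.

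The genes and lists were chosen with earlier results of these data known. By rule, the text names the 12 largest increases and decreases with a mean of at least 20 CPM and no overlap between the WT groups. It also names the 8 largest by change in CPM in each direction, and up to 4 genes per list and direction by p. For genes of the first rule a lack of overlap is therefore no separate support. Some of these, and 1 list, are not reported here, and other genes named were chosen after their values were seen. Promoter letters come from RefSeq (GRCm38.p6), another build than that of the counts, and were matched by symbol; 12 motifs were searched. The floor given for Kdelr3 covers counting error only. The standard errors come from the quasi-likelihood fit and include the spread between libraries.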

Additional observations from a re-analysis of the deposited data

Results flagged for a closer look

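The responses of the genotypes to BafA1 differed by a test of the difference itself (edgeR's quasi-likelihood test, adjusted p below 0.05 over all 12052 tested genes) for 57 of the 188 genes named in the text whose change was tested under the alternatives. All 57 had the larger change in WT, where the named genes had been chosen for their change, so this share is not a measure of how the genotypes compare. A difference of fold changes does not say which level differed. With DMSO Bhlhe41 averaged 110 CPM in WT and 294 CPM in KO, and with BafA1 471 and 551 CPM. Cd200 averaged 15.6 CPM in WT and 18.9 CPM in KO with DMSO, and 55.8 and 30.3 CPM with BafA1. Values below are the differences of log2 fold changes, WT minus Trem2 KO.

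Among increases outside the lists and in secreted, matrix or adhesion genes, the differences were Dio2 (2.62), Cdkn1c (2.38), Mgll (2.08), Lox (2.08), Itgb3 (1.83), Bex1 (1.70), Clmp (1.64), Angptl6 (1.57), P4ha2 (1.35), Tent5c (1.10), Fabp5 (0.84) and Vegfb (0.66). Among surface receptors and ligands that rose, they were Kdr (1.56), Clec4e (1.53), Cd274 (1.44), Slamf8 (1.33), Cd200 (1.17), Tnfrsf26 (1.12), Cd33 (1.04), Plxna1 (0.98), P2ry2 (0.72), Il2rg (0.59) and Il7r (0.52). In genes of the secretory pathway they were Gfpt1 (0.84), Stx3 (0.79), Sec61a1 (0.60), Creb3 (0.59), Gorasp2 (0.54), Arfgap3 (0.52), Scfd1 (0.43), Rpn1 (0.43) and Sec31a (0.40). For transporters, regulators and cytoskeletal genes that rose, they were Bhlhe41 (1.19), Arhgap24 (1.08), Car13 (1.06), Jun (1.02), Bhlhe40 (0.59), Cflar (0.53), Ipo5 (0.44), Atp2a2 (0.44), Rora (0.44), Slc11a2 (0.39) and Msn (0.33). For genes that fell in WT, they were Hpgd (-2.38), Fn1 (-2.36), Stmn1 (-2.02), Tgfbi (-1.56), Cx3cr1 (-0.94), Zfp36l1 (-0.92), Slc4a7 (-0.65), Tnfrsf11a (-0.62), Slc37a2 (-0.59), Igf1 (-0.57), Hnrnph1 (-0.57), Gas5 (-0.46), Hnrnpa2b1 (-0.44) and Flna (-0.43).

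Stmn1, Tgfbi and Jun had fold changes of opposite sign in WT and KO, but those of Stmn1 and Jun in KO were small. An opposite sign alone does not show that a response was reversed. The log2 fold change of Stmn1 was -1.84 in WT and 0.18 in KO (adjusted p of the difference 2.2e-07), that of Tgfbi was -0.92 in WT and 0.64 in KO (adjusted p 0.00089), and that of Jun was 0.81 in WT and -0.21 in KO (adjusted p 7.2e-05). No group has more than 3 libraries, so no gene was tested for 1 library far from the others of its group.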

How the results depend on the processing

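The number of genes called in WT, 5657, lay between 5008 and 5841 when each of the 12 libraries was left out in turn, and between 3924 (edgeR's test against a 1.2-fold change) and 5940 under the other settings. These were 3 other scalings (RLE, upper quartile and library size), DESeq2, limma-voom, testing without a filter or with at least 10 CPM in 3 libraries, a fit of the 6 WT libraries alone and a replicate block. Genes called higher ranged from 2404 to 2916 and genes called lower from 2588 to 3093 over the libraries left out, and the test against a 1.2-fold change called 1730 higher. Calls with a 2-fold change ranged from 1788 to 1945 over the libraries left out and numbered 1071 with the filter of 10 CPM, which tests fewer genes. Differences between WT and KO ranged from 665 to 1193 over the libraries left out and from 922 to 1481 otherwise. With the replicate block there were 5940 calls in WT and 1481 differences. The correlations of the deviations of same-numbered BafA1 and DMSO libraries were -0.005, 0.043 and 0.061 in WT, against -0.11 to 0.068 for differently numbered ones, and 0.074, 0.164 and 0.116 in KO, against -0.114 to -0.003. In KO every library correlated best with its own number and in WT not, and not every pair passed 0.1, so the numbers were not taken to pair the samples, which leaves a pairing in KO as a hint from the data.

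The test against a 1.2-fold change was compared by its counts of calls alone, not by named gene or list. No other setting reversed a named gene that it tested. Over these genes and settings a gene kept its call in 3935 cases and lost it in 5, all of them Gcc2. Most named genes were chosen for a small p or a large change in these same data. This count therefore does not describe how stable called genes are in general. Of 44 lists, 34 kept the sign of their median under all of these settings, and no median or direction is given for the other 10. Compared with the SD over the WT BafA1 libraries, a list median moved by less in 668 cases and by at least as much in 256. The median of the Golgi tethers, 0.41, ranged from 0.32 to 0.60. Other scalings moved the median of all genes by less than 0.1 on the log2 scale. The difference in total counts between BafA1 and DMSO libraries, 367820, ranged from -97883 (without WT DMSO replicate 1) to 735570. The difference in the percent of counts held by the 10 most abundant genes, -0.252, ranged from -0.872 to 0.151 (without WT DMSO replicate 1), and that in mitochondrial percent, -0.811, from -0.986 to -0.710. Depth limits genes below about 1 CPM, where 1 count changes a value visibly.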

Other observations

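Further motifs were read on both strands in the same 8734 RefSeq promoters, and their shares are given as counts of letters with no test. Among genes called lower with a 2-fold change, TTTGAA, the core of the cell cycle homology region, was in 24.4% of promoters, against 14.4% of all tested genes, and in 11.8% of those called higher with a 2-fold change. GAAANNGAAA, the interferon-stimulated response element, was in 7.88% of the lower genes, against 3.97% of all, and GAGGAA, the site of the macrophage factor PU.1, in 38.5% against 30.6%. The AP-1 site TGAGTCA was in 6.72% of the lower genes, against 4.45% of all. On the higher side TGATGCAA, the amino acid response element, was in 2.07% of promoters, against 0.779% of all, and TCACGTGA, the E-box of MiT-TFE factors, in 3.11% against 2.45% of all and 0.775% of the lower genes. TGACGTCA, the cyclic AMP response element, was in 2.28% of the higher and 2.71% of the lower genes, against 3.70% of all. The hypoxia core ACGTGC was in 10.6% of the higher and 6.85% of the lower genes, against 9.77% of all, and CCAAT in 45.9% of the higher and 48.2% of the lower genes, against 43.5% of all.

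Of the stromal and endothelial markers, Kdr, a receptor for vascular growth factor, stood at 16.4, 17.6 and 23.1 CPM in the BafA1 libraries, against 3.20, 3.54 and 5.04 CPM in the DMSO libraries. Its log2 fold change was 2.24 in WT and 0.68 in KO (difference 1.56, edgeR adjusted p 0.016).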
